A study of Mus musculus with 10 samples.

Results

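The genes described here are the interleukin 1 and interleukin 6 axis in the mouse aorta: the interleukin 1 ligands Il1a and Il1b, their antagonist Il1rn, the receptors Il1r1 and Il1r2, the interleukin 6 family ligands Il6 and Lif, their shared receptor chain Il6st, the feedback inhibitor Socs3 and the cytokine-induced pentraxin gene Ptx3. They were chosen by name, as every probe set whose platform gene symbol is 1 of these 10, which gave 20 of the 45101 probe sets on the array (34945 of them carry 1 gene symbol). Total RNA from whole aortas of male C57BL/6 mice was hybridised to 1-colour Affymetrix arrays. The wild type group had values for 4 mice (replicates 1, 3, 4 and 5) and the Ptgds-/- group for 5 (replicates 1 to 5). Wild type replicate 2 is listed too, but its label says that it was left out, and it holds 0 values. The knockout mice lack lipocalin-type prostaglandin D synthase (L-PGDS), an enzyme that makes prostaglandin D2. All mice ate chow, and the labels name no treatment. The labels call the samples biological replicates and give no age, litter, substrain, scan batch or hour of dissection, and they do not describe the allele.

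Interleukin 1α and interleukin 1β signal through the receptor encoded by Il1r1, the adaptor MyD88 and NF-κB. The product of Il1rn blocks that receptor, and the product of Il1r2 binds the ligand without signalling. Interleukin 6 and leukaemia inhibitory factor act through gp130, the product of Il6st, which starts JAK kinases and STAT3; STAT3 in turn induces Socs3, whose protein shuts gp130 signalling down. In vessels these cytokines are best known from activated endothelium, macrophages and smooth muscle cells in atherosclerosis and injury.

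0 of the 14 member probe sets that could be tested passed an adjusted p of 0.05 (limma, Benjamini-Hochberg adjustment over all probe sets tested), and 6 had an unadjusted p under 0.05. The values that stood farthest apart were those of Socs3, Il1rn and Il1r2, all lower in the knockout aortas, and 1 probe set of Ptx3, which was higher. Across the array 21 of 26504 tested probe sets passed, 0.0792%, and 18.9% had an unadjusted p under 0.05 (10.5% higher and 8.38% lower in the knockout). The test took in every probe set that exceeded a log2 value of 4 on 4 or more arrays, which 14 of the 20 members did, from 8 of the 10 genes. The other 6 were the only probe sets of Il1a and Il6, 2 of Il1rn, 1 of Il1r1 and 1 of Lif. All 5 members lower at an unadjusted p under 0.05 belong to 3 genes, and 3 of those 5 are probe sets of Socs3, so they are not independent of each other. Of the 5, Il1rn 1451798_at, Il1r2 1419532_at and Socs3 1416576_at passed the filter only through the wild type arrays, where they are higher. 3 of the 14 had groups that did not overlap, all lower in the knockout; over all tested probe sets 2.62% were lower without overlap. In all, 8 members were lower and 6 higher, with a median change of -0.13 (log2), where 47.3% of all tested probe sets were lower and their median change was 0.01.

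**Figure D1:**
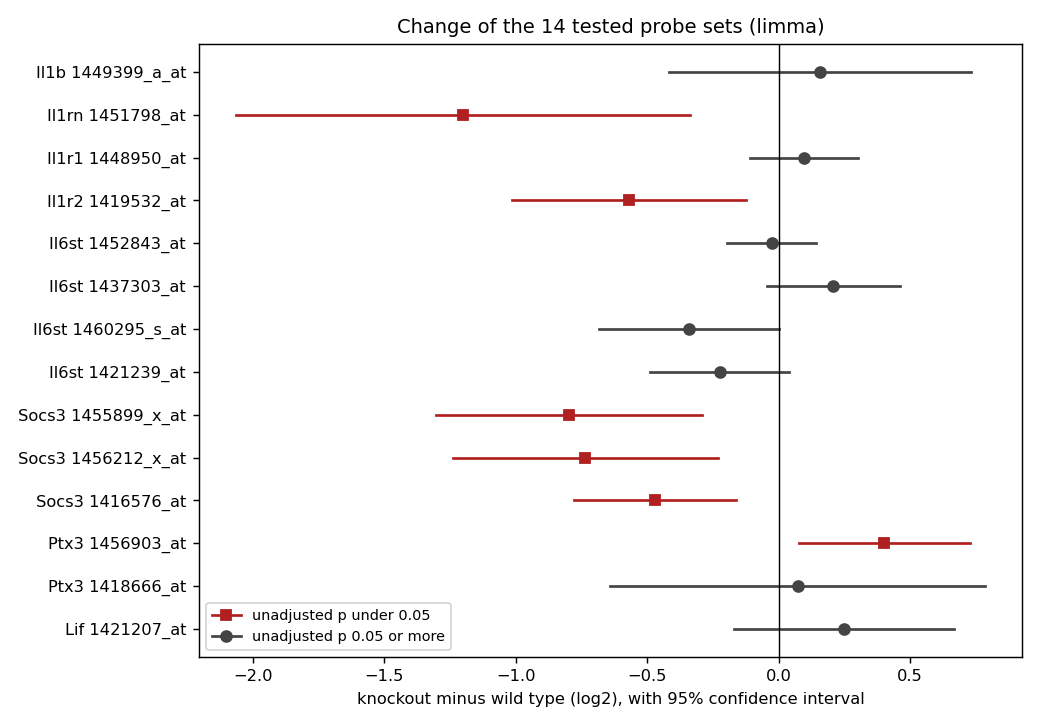
Knockout minus wild type (log2, horizontal axis) for the 14 tested probe sets, with the 95% confidence interval of the limma fit; red squares have an unadjusted p under 0.05. The 3 probe sets of Socs3 and those of Il1rn and Il1r2 lie below 0, from -1.20 to -0.47, and 1 of the 2 tested probe sets of Ptx3 lies above it at 0.40.

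Ptgds checked the genotype labels. On probe set 1423859_a_at it lay between 8.68 and 10.31 on the wild type arrays and between 3.67 and 4.40 on the knockout arrays, with an adjusted p of 0.00060. The groups stood far apart on it. On the other probe set, 1423860_at, Ptgds lay between 4.87 and 6.97 on wild type and between 3.92 and 4.35 on knockout arrays. Its change there was -1.80 (SE 0.34) with an adjusted p of 0.089 (limma), which did not pass the threshold. The arrays had median log2 values of 5.88 to 5.97, and each correlated with the others at a mean r of 0.99 except wild type replicate 3 at 0.98. Smooth muscle markers such as Myh11 and Acta2 had list means of 12.09 to 12.33 on all 9 arrays. As a gauge of background, 27 probe sets for Bacillus subtilis transcripts, which a mouse does not make, lay between 1.99 and 4.16 with a median of 2.75. Neuronal markers differed most among the arrays: their mean was 11.20 on wild type replicate 3 and 9.49 on knockout replicate 1, against 5.06 to 8.07 on the other arrays. Skeletal muscle markers stood at 9.85 on knockout replicate 3 and at 4.56 to 5.09 elsewhere. In whole tissue, fewer cells of a type and less RNA per cell cannot be told apart. With 9 arrays in all, precision is limited by their number.

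**Figure D2:**
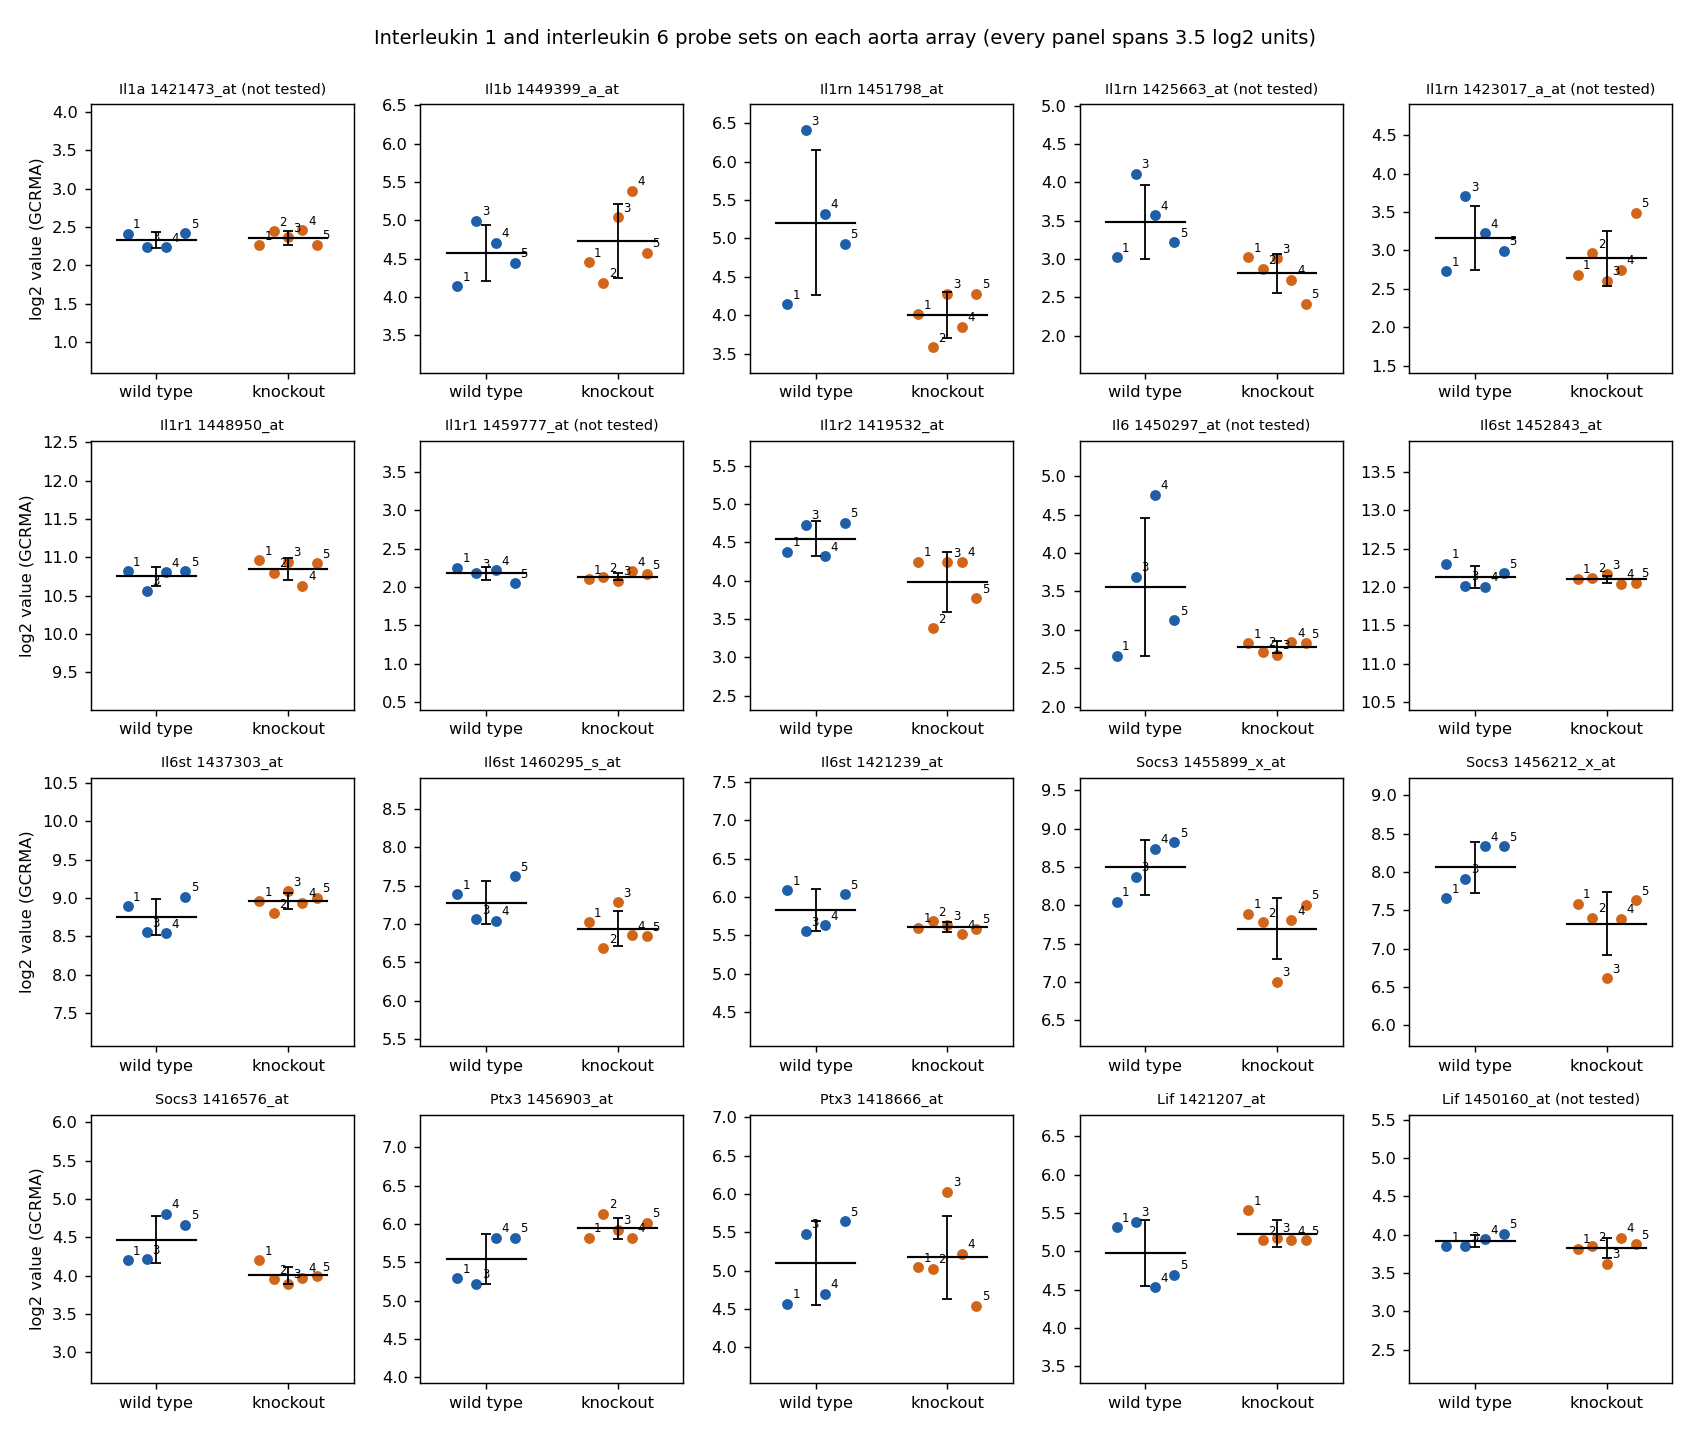
Log2 value (vertical axis) of each of the 20 probe sets on the 4 wild type and 5 knockout arrays; numbers are replicate numbers, bars the mean and SD, and every panel spans the same number of log2 units. Il1rn 1451798_at and Il6 are spread widely on the wild type arrays and closely packed on the knockout arrays, while Il1r1 1448950_at lies between 10.57 and 10.97 and Il6st 1452843_at between 12.00 and 12.30.

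The interleukin 1 ligands were at or near background in these aortas. Il1a, read by 1421473_at, lay between 2.24 and 2.42 on the wild type and between 2.26 and 2.46 on the knockout arrays, below the median of the Bacillus probe sets. Il1b, read by 1449399_a_at, stood at 4.14, 4.99, 4.71 and 4.45 on wild type replicates 1, 3, 4 and 5 and at 4.45, 4.19, 5.04, 5.38 and 4.58 on knockout replicates 1 to 5. The groups of Il1b overlapped over most of their range. Its change was 0.16 (SE 0.26, 95% interval -0.42 to 0.73, adjusted p 0.773).

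Il1rn encodes the interleukin 1 receptor antagonist, a protein that occupies the receptor without activating it. Its probe set 1451798_at stood at 4.14, 6.42, 5.32 and 4.93 on wild type replicates 1, 3, 4 and 5. On knockout replicates 1 to 5 it stood at 4.01, 3.58, 4.28, 3.85 and 4.28. 3 of the 4 wild type arrays lay above every knockout array, and wild type replicate 1 lay among the knockout values, so the groups overlapped. The change was -1.20 (SE 0.38, 95% interval -2.06 to -0.34), 2.30-fold lower, with an unadjusted p of 0.012 and an adjusted p of 0.161. All 5 knockout values lie near the top of the range of the Bacillus probe sets. It was -0.80 without wild type replicate 3, whose Il1rn value and neuronal marker mean were both the highest of all arrays, and -1.55 with an adjusted p of 0.032 without wild type replicate 1. Knockout replicate 1, second in neuronal markers, had an Il1rn value of 4.01; without it and wild type replicate 3 together the change was -0.80 (SE 0.30, unadjusted p 0.029). The other probe sets of Il1rn were not tested: 1425663_at averaged 3.48 ± 0.48 (SD, n = 4) on wild type and 2.81 ± 0.25 (SD, n = 5) on knockout arrays, and 1423017_a_at at 3.16 ± 0.41 and 2.90 ± 0.36. Over the 9 arrays they correlated with 1451798_at at r = 0.88 and 0.72.

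Il1rn lies on chromosome 2, as Ptgds does, with 30 tested genes between them in the gene order of GRCm38.p6. Of these 30, 2 had an unadjusted p under 0.05, where 19.1% of all tested genes did, 1 of them was lower, and 0 passed the adjusted threshold (limma). Their median change was 0.12, and 8 were lower in the knockout, where 43.3% of all tested genes were. The part of the targeted region in the Il1rn value was not tested. Il1a and Il1b are on the same chromosome, farther away, with 589 tested genes between them and Ptgds. Which start of Il1rn is used in these aortas was not tested. RefSeq gives Il1rn 3 start sites. The 250 bases before the first of them (GRCm38.p6, chr2:24336610-24336859, plus strand) are shown because Il1rn had the lowest change of the members; the capitals mark the single AP-1 motif TGANTCA in this window, read on both strands.
Il1rn: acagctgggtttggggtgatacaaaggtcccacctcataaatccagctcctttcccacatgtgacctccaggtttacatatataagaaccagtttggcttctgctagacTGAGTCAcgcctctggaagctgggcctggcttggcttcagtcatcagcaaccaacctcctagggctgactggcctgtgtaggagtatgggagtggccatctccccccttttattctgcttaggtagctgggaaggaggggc
The windows of the other 2 starts held no match to that motif, to the STAT motif TTCNNNGAA, to the C/EBP motif TTGCNNAA or to the NF-κB consensus, the 4 motifs searched; the printed match overlapped none of the others. Of 32851 RefSeq windows of that length, 6.75% hold the AP-1 motif, 7.02% the STAT motif, 9.56% the C/EBP motif and 5.0% the NF-κB consensus.

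Neither receptor gene passed the adjusted threshold. Il1r1, the signalling receptor, had a high and even signal on 1448950_at: 10.82, 10.57, 10.81 and 10.82 on the wild type arrays and 10.97, 10.80, 10.94, 10.63 and 10.92 on the knockout arrays. The groups overlapped, with 3 of the 5 knockout arrays above every wild type array, and the change was 0.10 (SE 0.09, 95% interval -0.11 to 0.30, adjusted p 0.595). Its other probe set, 1459777_at, lay at background, from 2.05 to 2.26 on all arrays. Il1r2, the decoy receptor, stood at 4.38, 4.73, 4.32 and 4.76 on wild type replicates 1, 3, 4 and 5 (1419532_at). The knockout arrays held 4.25, 3.38, 4.24, 4.25 and 3.77. Every knockout array lay below every wild type array, though by only a small gap at the nearest pair, and both groups were close to the top of the Bacillus range. The change of Il1r2 was -0.57 (SE 0.20, 95% interval -1.01 to -0.12, 1.48-fold lower), with an unadjusted p of 0.018 and an adjusted p of 0.184.

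The window before the start of Il1r2 (GRCm38.p6, chr1:40085843-40086092, plus strand, from RefSeq) is shown because the groups of Il1r2 did not overlap; its capitals are the only match to the 4 motifs, a STAT motif TTCNNNGAA.
Il1r2: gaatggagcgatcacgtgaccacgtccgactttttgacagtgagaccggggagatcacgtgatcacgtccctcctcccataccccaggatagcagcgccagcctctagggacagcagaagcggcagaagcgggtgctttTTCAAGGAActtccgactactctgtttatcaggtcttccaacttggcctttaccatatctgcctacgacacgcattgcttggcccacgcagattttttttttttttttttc
Socs3, below, holds the same motif in its window. Matches were not limited to the genes with lower values: the windows of Il1a, Il6 and Lif held an AP-1 motif, those of Ptx3, Il6 and 1 of the 2 of Il1r1 a C/EBP motif, and that of Il6 the NF-κB consensus, while those of Il1b and Il6st held none of the 4. A match is a string of letters and does not show that a factor binds there.

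Macrophages and neutrophils are known sources of Il1b, Il1rn and Il1r2 transcripts, so their markers are given beside them. Of 13 macrophage markers 12 were tested and 12 were lower in the knockout, with list means of 8.27 to 9.27 on the wild type and 8.45 to 8.64 on the knockout arrays. These ranges overlapped. On wild type replicates 1, 3, 4 and 5 the macrophage means were 8.88, 9.04, 8.27 and 9.27. Il1rn stood at 4.14, 6.42, 5.32 and 4.93 on the same arrays (1451798_at). Of 10 neutrophil markers 9 are on the array and 3 were tested (S100a8, S100a9 and Ngp), all 3 higher in the knockout, with means of 4.96 to 6.47 and 4.82 to 6.78. Of the untested markers, Mpo, Mmp8 and Cxcr2 lay at background, from 2.26 to 3.06, and Csf3r, Camp and Ltf lay between 3.30 and 4.08. Other lists were lower as well: endothelial cells in 8 of 8 markers (9.02 to 9.46 in wild type, 8.79 to 9.09 in the knockout), mast cells in 5 of 5 (5.97 to 7.21 and 5.97 to 6.73), adipocytes in 6 of 6 (10.58 to 11.13 and 9.81 to 10.94) and brown adipocytes in 6 of 6 (10.46 to 11.38 and 9.78 to 10.62). The ranges of these 4 lists overlapped between the groups. Neuronal markers were lower in 8 of 8 and fibroblast markers in 5 of 7. Higher were mesothelial markers in 4 of 4, smooth muscle markers in 6 of 8 and skeletal muscle markers in 5 of 5. T and B cell markers were split, 3 higher and 3 lower, and Schwann cell markers, 2 and 2. Over all tested genes 43.3% were lower in the knockout. The part of these cells in the values of Il1rn and Il1r2 was not tested.

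Il6 and Lif, the interleukin 6 family ligands among the members, were faint. Il6 (1450297_at) stood at 2.66, 3.69, 4.76 and 3.12 on wild type replicates 1, 3, 4 and 5, and at 2.83, 2.71, 2.67, 2.84 and 2.83 on knockout replicates 1 to 5. Only wild type replicate 4 exceeded the highest Bacillus value, and the 5 knockout arrays were packed within a narrow band at background. Il6 was therefore not tested; with no filter on low values its unadjusted p was 0.049 and its adjusted p 0.321 (limma). Lif, a cytokine of the same family, stood at 5.31, 5.38, 4.53 and 4.70 on the wild type and at 5.54, 5.14, 5.18, 5.14 and 5.14 on the knockout arrays with 1421207_at. The wild type mice split into a high and a low pair, and the knockout mice lay between or just above them. The change of Lif was 0.25 (SE 0.19, 95% interval -0.17 to 0.67, adjusted p 0.499). Its other probe set, 1450160_at, lay between 3.62 and 4.01 on all arrays.

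Socs3 had the smallest p among the members. On 1455899_x_at it stood at 8.05, 8.38, 8.74 and 8.82 on wild type replicates 1, 3, 4 and 5, and at 7.89, 7.78, 7.01, 7.81 and 8.01 on knockout replicates 1 to 5. No knockout array reached the lowest wild type array, and knockout replicate 3 was the lowest by a wide gap. The change was -0.80 (SE 0.23, 95% interval -1.30 to -0.29), 1.74-fold lower, with an unadjusted p of 0.0059 and an adjusted p of 0.142. Probe set 1456212_x_at gave -0.74 (SE 0.22, adjusted p 0.153), also with no overlap, and followed the first at r = 0.996 over the 9 arrays, so both count as 1 measurement. Affymetrix marks with _x_ a probe set some of whose probes may also bind other transcripts. The third, 1416576_at, carries no such mark and lay near background, at 4.20, 4.22, 4.81 and 4.67 in wild type and 4.20, 3.95, 3.90, 3.98 and 3.99 in the knockout. It gave -0.47 (SE 0.14, 95% interval -0.78 to -0.16, adjusted p 0.147), with knockout replicate 1 level with the lowest wild type array. All 3 probe sets had lower means in the knockout, at unadjusted p-values of 0.0059 to 0.0091 (limma). The third exceeded a log2 value of 4 on 5 arrays, all those of the wild type and knockout replicate 1. It entered the test only through the group where it is high, so its p-value is no separate support. Without wild type replicate 1, the first and the third passed the adjusted threshold, at 0.046 and 0.049; in that fit 3 of the 14 members passed, with Il1rn, and 6.31% of all tested probe sets.

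The promoter window of Socs3 (GRCm38.p6, chr11:117969367-117969616, minus strand, from RefSeq) is shown because STAT3 is the textbook inducer of this gene; its capitals are the only match to the 4 motifs, again a STAT motif TTCNNNGAA.
Socs3: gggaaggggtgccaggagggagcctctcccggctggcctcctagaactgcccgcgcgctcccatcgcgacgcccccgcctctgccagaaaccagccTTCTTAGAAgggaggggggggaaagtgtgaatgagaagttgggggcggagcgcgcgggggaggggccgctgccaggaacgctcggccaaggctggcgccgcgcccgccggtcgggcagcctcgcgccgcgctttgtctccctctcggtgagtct
The match begins 154 bases before the start of Socs3, and that of Il1r2 begins 111 bases before its start.

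Values of 3 stress response lists are given beside those of Socs3; the lists were not tested. Of 8 inducible heat shock genes all 8 were lower, with list means of 12.26 to 12.73 in wild type and 12.02 to 12.14 in the knockout, without overlap. Of 8 glucocorticoid targets all 8 were lower, with means of 11.59 to 11.89 and 11.04 to 11.61, and knockout replicate 4 reached into the wild type range. Of 12 immediate early genes such as Fos and Egr1, 9 were lower, with means of 9.87 to 11.16 and 10.09 to 10.93, so that the knockout range lay within that of the wild type. Knockout replicate 3, with the lowest Socs3 value, had an immediate early mean of 10.86, in the middle of the arrays. Wild type replicate 1 was the lowest array in immediate early genes and the lowest wild type array in Socs3. The 3′ minus 5′ difference of the actin control, a gauge of RNA integrity, was 2.29 to 2.61 in wild type and 2.42 to 2.73 in the knockout, and that of Gapdh 2.48 to 3.32 and 2.57 to 3.23. The part of these responses and of RNA integrity in the Socs3 difference was not tested.

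Il6st encodes gp130, the signalling chain that interleukin 6 and leukaemia inhibitory factor share. Its 4 probe sets had changes of both signs, each with a 95% interval that included 0. The brightest, 1452843_at, stood at 12.30, 12.02, 12.00 and 12.18 on the wild type and 12.11, 12.12, 12.16, 12.04 and 12.06 on the knockout arrays, a change of -0.03 (SE 0.08, 95% interval -0.20 to 0.14). Probe set 1437303_at gave 0.21 (SE 0.11), 1460295_s_at gave -0.34 (SE 0.15) and 1421239_at gave -0.22 (SE 0.12), with adjusted p-values of 0.266 to 0.881 for the 4. Within a genotype the last 3 moved together from mouse to mouse, with r of 0.63 to 0.91 after each group's mean was subtracted, yet their differences between genotypes did not share a sign.

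The value of 1437303_at minus that of 1460295_s_at was 1.50, 1.49, 1.50 and 1.39 on wild type replicates 1, 3, 4 and 5. On knockout replicates 1 to 5 it was 1.94, 2.11, 1.81, 2.09 and 2.16. The wild type values lay within a narrow band and every knockout value lay well above them. The pair was picked after its values were seen, so the same fit was run on the 21223 pairs of tested probe sets that 6865 genes have. There the Il6st pair had a difference of 0.55 (SE 0.08, 95% interval 0.36 to 0.74), an unadjusted p of 8.5e-05 and an adjusted p of 0.066, the 27th smallest p. It did not pass the threshold, while 19 pairs did, 0.0895%; 3.46% of all pairs were higher in the knockout without overlap. Leaving out any 1 array kept this difference between 0.52 and 0.60. The pair of 1437303_at and 1421239_at had a difference of 0.43 (SE 0.09, adjusted p 0.110), also without overlap. The mark _s_ denotes a probe set shared by more than 1 transcript, and the positions of the probes on the Il6st transcripts were not used here.

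**Figure D3:**
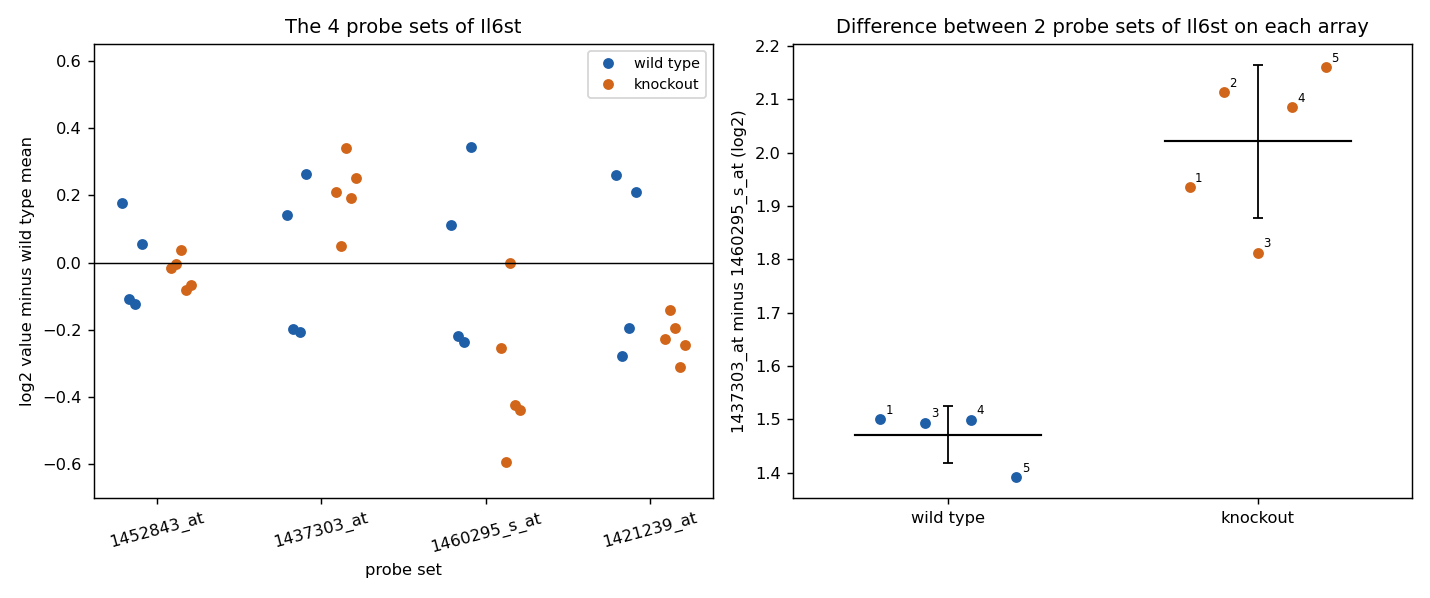
Left, log2 value minus the wild type mean (vertical axis) of the 4 Il6st probe sets on each array, wild type in blue and knockout in orange. Right, the log2 difference between 1437303_at and 1460295_s_at on each array with replicate numbers, mean and SD; the wild type arrays lie at 1.39 to 1.50 and the knockout arrays at 1.81 to 2.16.

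Ptx3, a pentraxin that interleukin 1 induces in vessel cells, was read by 2 tested probe sets. On 1456903_at it stood at 5.29, 5.22, 5.82 and 5.82 on the wild type and at 5.82, 6.13, 5.92, 5.82 and 6.02 on the knockout arrays. All knockout arrays lay at or above the upper wild type pair. The change was 0.40 (SE 0.14, 95% interval 0.08 to 0.73, 1.32-fold higher), with an unadjusted p of 0.021 and an adjusted p of 0.193. On 1418666_at the change was 0.07 (SE 0.32, 95% interval -0.64 to 0.79), with both groups spread between 4.54 and 6.03. The 2 probe sets were unrelated from array to array, at r = 0.03, so the higher value of Ptx3 rests on 1 of them. In the fit on pairs, 1456903_at minus 1418666_at changed by 0.33 (SE 0.35, 95% interval -0.45 to 1.11, adjusted p 0.704, limma). The changes of the 2 probe sets therefore cannot be said to differ.

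**Figure D4:**
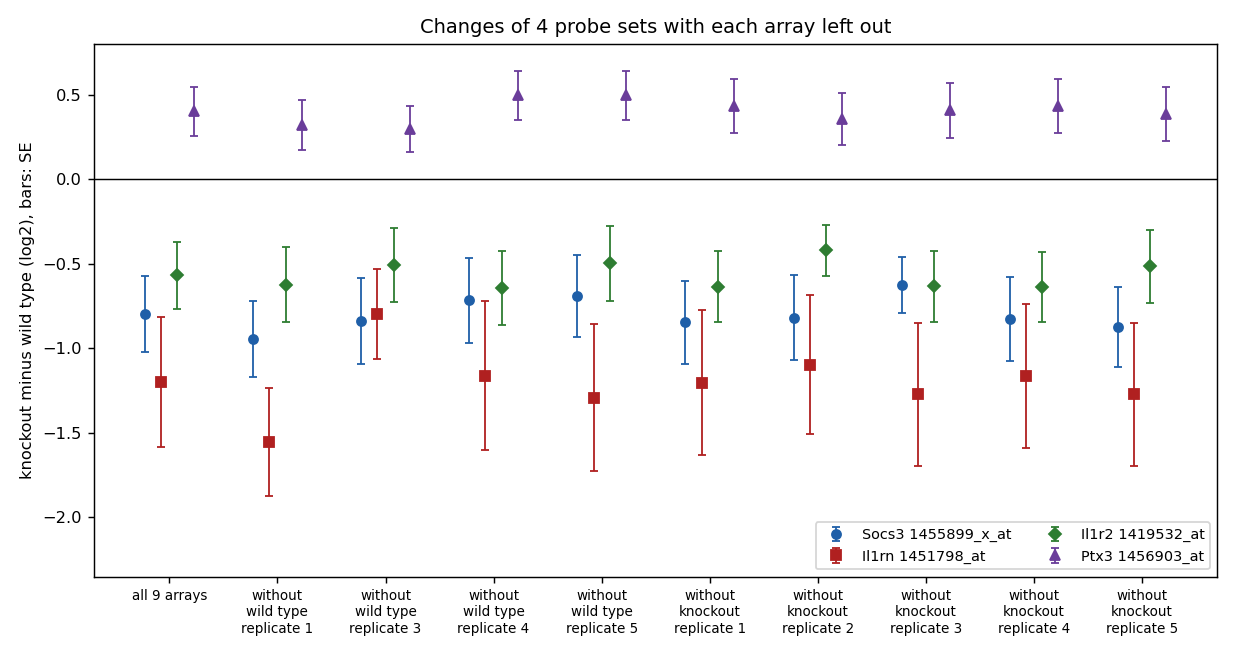
Knockout minus wild type (log2, vertical axis, bars SE) for Socs3, Il1rn, Il1r2 and Ptx3 with all 9 arrays and with each array left out in turn. Il1rn moves most, from -1.55 without wild type replicate 1 to -0.80 without wild type replicate 3; Socs3 stays between -0.95 and -0.62, Il1r2 between -0.64 and -0.42 and Ptx3 between 0.30 and 0.50.

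The other genes of both pathways were taken from 5 lists with 97 genes, 87 of them found on the array by symbol and 80 tested, each by its brightest tested probe set. 0 passed an adjusted p of 0.05 (limma), against 0.0628% of all genes; 12 were lower and 3 higher at an unadjusted p under 0.05, 15 of 80, where 19.1% of all 14321 tested genes had such a p (6.94% lower and 12.2% higher). The total is close to that background, with more of the 15 on the lower side. 2 were lower without overlap, Casp1 and Jak1, and 0 higher; over all genes 2.16% were lower without overlap.

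Among interleukin 1 ligands, receptors and processing genes 9 of 11 were lower, with a median of -0.20 against 0.03 over all genes. Casp1, the protease that cuts the precursor of interleukin 1β, stood at 8.25, 8.17, 8.05 and 8.37 in wild type and at 8.04, 7.92, 7.93, 7.68 and 7.94 in the knockout, a change of -0.31 (SE 0.09, adjusted p 0.147). Its highest knockout array just missed the lowest wild type array. Sigirr, an inhibitory receptor of the family, had a change of -0.28 (SE 0.10, adjusted p 0.201) and Il1rl2, a receptor of the same family, one of -0.54 (SE 0.21, adjusted p 0.220). Downstream, 11 of 19 genes from the receptor to NF-κB were lower, with a median of -0.02. The smallest p there was that of Irak3, a brake on MyD88 signalling, with a change of -0.27 (SE 0.11, adjusted p 0.226). By its other tested probe set Irak3 stood at 0.06 (SE 0.13). The kinase gene Map3k7 (TAK1) had 0.13 (SE 0.07, adjusted p 0.322) on its brightest probe set, but 4 of its 6 tested probe sets were lower in the knockout. A dimmer one stood at -0.45 (SE 0.09, unadjusted p 0.00082, adjusted p 0.100) without overlap, so Map3k7 has no direction common to its probe sets. Next was the adaptor gene Tollip, at -0.13 (SE 0.07, adjusted p 0.355). By its other tested probe set Tollip stood at -0.42 (SE 0.13, adjusted p 0.152).

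Of 9 interleukin 6 family ligands and receptors 8 were lower, with a median of -0.13. Il6ra, the binding chain that gives gp130 its specificity for interleukin 6, stood at 7.79, 7.96, 8.05 and 8.61 on the wild type arrays. On the knockout arrays it stood at 7.19, 7.20, 7.58, 7.99 and 7.09. Knockout replicate 4 reached the wild type values and the other 4 knockout arrays below it. The change of Il6ra was -0.69 (SE 0.22, 95% interval -1.18 to -0.20, adjusted p 0.158). By its other tested probe set Il6ra stood at -0.16 (SE 0.12). Il31ra and Cntfr, receptors for other cytokines of the family, had changes of -0.39 (SE 0.24, adjusted p 0.400) and -0.38 (SE 0.28, adjusted p 0.480). Their other tested probe sets stood at 0.06 (SE 0.15) and -0.04 (SE 0.09).

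The JAK-STAT list was divided, with 10 of 17 genes higher and a median of 0.02. Tyk2, a JAK kinase, had a change of 0.47 (SE 0.13, adjusted p 0.137), and Pias3, an inhibitor of STAT3, one of 0.38 (SE 0.11, adjusted p 0.152). For both genes wild type replicate 1 lay among the knockout arrays, at 8.50 for Tyk2 and 9.42 for Pias3, and the other wild type arrays lay below them. Jak1, the main kinase bound to gp130, stood at -0.22 (SE 0.07, adjusted p 0.173) without overlap, and Stat3 itself at -0.23 (SE 0.08, adjusted p 0.186). Cish, a STAT-induced relative of Socs3, stood at -1.23 (SE 0.53, adjusted p 0.253). Socs4 entered the list by its brightest probe set, at -0.01 (SE 0.07). Its dimmer probe sets stood lower, at -0.61 (adjusted p 0.147), -0.63 (adjusted p 0.082) and -0.57 (adjusted p 0.105). Those at -0.63 and -0.57 did not overlap between the groups.

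Known interleukin 1 or interleukin 6 induced genes were lower in 16 of 24, with a median of -0.07. Cebpb, a transcription factor of the acute phase response, stood at -0.47 (SE 0.13, adjusted p 0.139), and Myc, a growth factor-induced transcription factor, at -1.04 (SE 0.30, adjusted p 0.145). Tnfaip6, a hyaluronan-binding protein of inflamed matrix, stood at 8.60, 10.23, 10.33 and 10.63 on wild type replicates 1, 3, 4 and 5 and at 8.68, 8.13, 8.59, 8.87 and 8.79 on the knockout arrays, a change of -1.34 (SE 0.37, adjusted p 0.140). As with Il1rn, 3 wild type arrays lay above every knockout array and wild type replicate 1 lay among them. Among acute phase genes, Saa3 stood at 0.04 (SE 0.55), Hp at 0.04 (SE 0.25) and Lcn2 at -0.79 (SE 0.41, adjusted p 0.328). Differences between these genes were not tested. The adhesion molecules Icam1 and Vcam1, at -0.06 (SE 0.22) and -0.03 (SE 0.16), lay close to 0 by their brightest probe sets. Other tested probe sets of Vcam1 stood at -0.18 (SE 0.25) and -0.35 (SE 0.25). Selp, a further adhesion molecule of the list, stood at -0.32 (SE 0.30) and -0.29 (SE 0.27) on its tested probe sets. Saa3, Hp, Lcn2, Icam1, Vcam1 and Selp, with Stat3, Cish and Socs4, were picked after their values were seen.

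**Figure D5:**
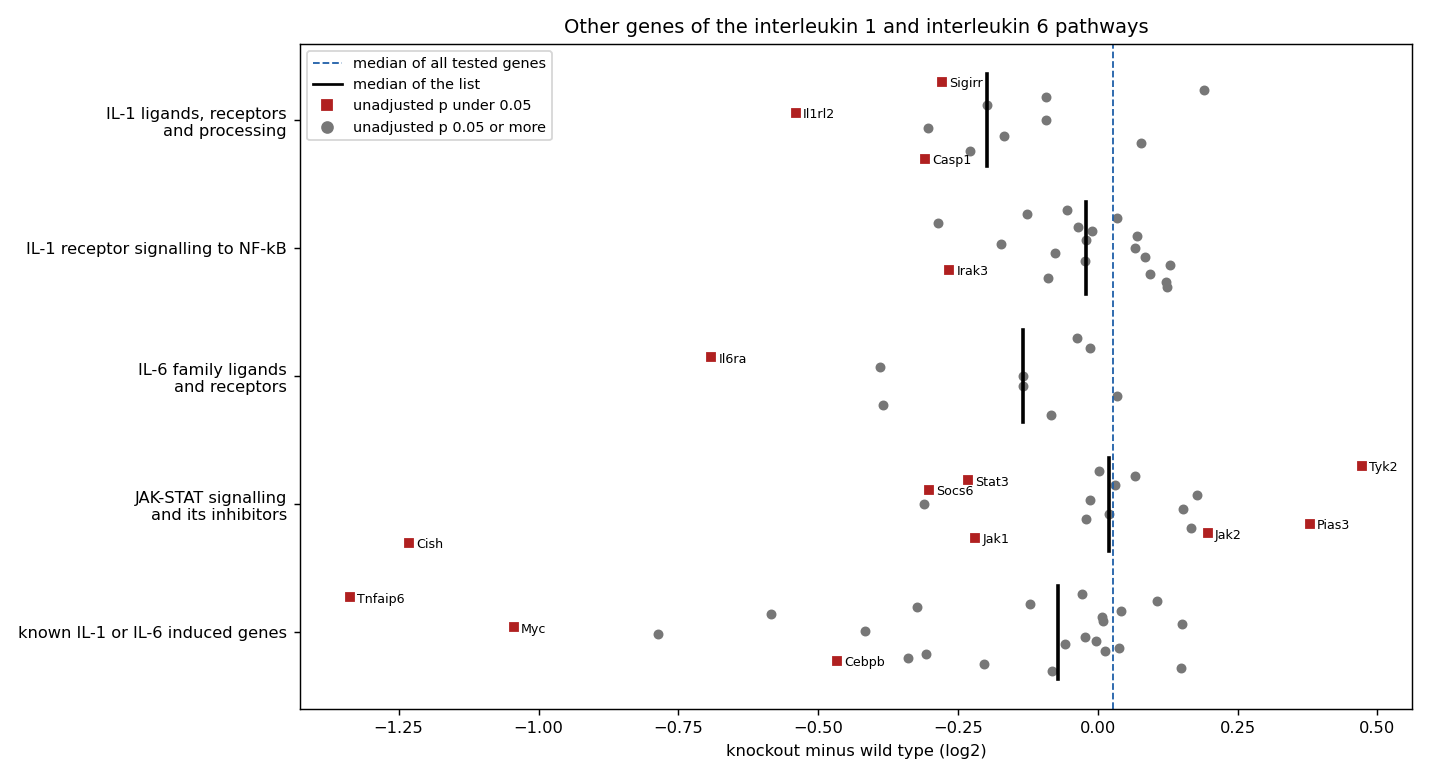
Knockout minus wild type (log2, horizontal axis) for the 80 tested genes of 5 pathway lists, 1 mark per gene; red squares with names have an unadjusted p under 0.05, black bars are list medians and the dashed line is the median of all tested genes at 0.03. Most named genes lie left of 0, with Tyk2, Pias3 and Jak2 to its right.

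For the 3 member genes with the largest SD over the 9 arrays by their brightest tested probe set, the genes most like them are given as a description; the points share arrays and normalization, and genes were ranked among 14321. Il1rn (SD 0.88) was followed most closely by Shmt1 (r = 0.97), Gmps (r = 0.96) and Usp22 (r = 0.95). Without wild type replicates 3 and 4, the arrays farthest from its median, these r were 0.90, 0.94 and 0.90. Socs3 (SD 0.55) was followed by Vbp1 (r = 0.96), Slc26a3 (r = 0.95) and Slc24a4 (r = 0.95), and Il1r2 (SD 0.43) by Prnp (r = 0.96), Acer3 (r = 0.96) and Sptbn1 (r = 0.94).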

How the data were processed

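Per the submitters' processing notes, GCRMA produced the deposited table; it subtracts background, equalises arrays and summarises each probe set, and no version is given. No label names the scale, so the deposited numbers were taken as log2 because of their range. Genes were named from the platform annotation: of 45101 probe sets, 34945 carry 1 symbol and were kept, 932 carry several, 9160 carry none and 64 are controls. A log2 value over 4 on at least 4 arrays left 26504 probe sets of 14321 genes. All of them entered 1 fit of genotype without covariates in limma 3.58.1 (R 4.3.3, lmFit then eBayes), with Benjamini-Hochberg adjustment at 0.05; changes are knockout minus wild type with the moderated SE. The procedure was tested on simulated data. The labels do not say whether replicate numbers pair the mice, and the main fit used no block. Deviations of same-numbered arrays correlated at -0.27, -0.11, 0.07 and 0.15, which cannot settle whether mice were paired. Named were all members, Ptgds, the 3 genes of each pathway list with the smallest p, any gene past the threshold, and for likeness the 3 genes with the highest r for each of 3 members; other genes are said to be picked afterwards. Members and lists were chosen with earlier results of these data known. Promoter windows came from RefSeq (GRCm38.p6), without the bases after the start. The alternatives tried were a further quantile normalization, centring on array medians, other filters, 1 probe set per gene, a trend and robust prior, array weights, the replicate block and each array left out; the fit on probe set pairs and that without the 2 arrays richest in neuronal transcripts were added after seeing the data.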

Additional observations from a re-analysis of the deposited data

Results flagged for a closer look

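4 values of member probe sets stood apart from the rest of their group, out of 40 groups looked at, where chance gives about 1 in 20. Socs3 on knockout replicate 3 lay at 7.01 on 1455899_x_at, with the next knockout array at 7.78, and at 6.62 on 1456212_x_at, with the next at 7.39; these probe sets are 1 measurement. Il1r1 on wild type replicate 3 lay at 10.57 on 1448950_at, with the other 3 wild type arrays at 10.81 or 10.82. Lif on knockout replicate 1 lay at 5.54 on 1421207_at, with the next knockout array at 5.18. Wild type replicate 3 and knockout replicate 1 are the arrays with the highest neuronal marker means, and knockout replicate 3 is the array with the highest skeletal muscle marker mean. Their part in these values was not tested.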

How the results depend on the processing

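The count of member probe sets past an adjusted p of 0.05 (limma) was 0 in every alternative except 1: it ranged from 0 to 3 with 1 array left out, the 3 coming without wild type replicate 1. For all probe sets the count of 21 became 8 with 1 probe set per gene, 66 with the trend and robust prior, 367 with array weights, 1 with the replicate block (8 arrays, in which 0 members passed), 6 without wild type replicate 3 and knockout replicate 1 together, and 6 to 1673 with 1 array left out. The block is a fit by number alone, and 0 of 4 wild type arrays deviated most like the knockout array of their own number. Of the pathway genes 0 passed, against 1 with array weights (Tnfaip6) and 0 to 6 with 1 array left out, the 6 being Cebpb, Myc, Pias3, Ptgs2, Tnfaip6 and Tyk2 without wild type replicate 1. No member turned its direction under another normalization, filter, prior, weighting or the block. With 1 array left out, the change of Il1b ran from -0.0075 to 0.30, that of Il6st on 1452843_at from -0.068 to 0.033 and that of Ptx3 on 1418666_at from -0.14 to 0.25, so these have no stable direction; Socs3, Il1rn, Il1r2 and Ptx3 on 1456903_at kept theirs. With 1 array left out, list medians ran from -0.25 (without wild type replicate 4) to -0.11 (without wild type replicate 5) for interleukin 1 ligands, receptors and processing, from -0.18 (without wild type replicate 4) to -0.037 (without knockout replicate 1) for the interleukin 6 family, from 0.013 to 0.039 for JAK-STAT genes and from -0.21 (without wild type replicate 1) to -0.0053 (without wild type replicate 5) for induced genes. The median of the genes from the receptor to NF-κB, at -0.02, turned positive with array medians set to 0 (0.0015), with wild type replicate 4 left out (0.0071) and with knockout replicate 4 left out (0.0048). The difference between the Il6st probe sets 1437303_at and 1460295_s_at kept its direction in all 12 alternatives, and passed the adjusted threshold in 1, without wild type replicate 1 (adjusted p 0.031). Values near 4 are limited by background, and their fold changes are not exact.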
